A study of Sus scrofa domesticus with 150 samples.

Results

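Fibronectin and 8 matricellular genes were followed through the healing of full-thickness skin wounds in pigs. They were FN1, TNC, POSTN, SPARC, THBS1, THBS2, SPP1, CCN1 and CCN2, 9 of the 30461 genes in the count table, found by their symbol in the table's name column or, for FN1, TNC and THBS2, by the symbol of the matched protein. The rule that names them uses no measured value, although they were chosen with earlier results of these data known. Each was matched by exactly 1 gene, and all 9 passed the filter on low counts. Fibronectin is a fibrillar glycoprotein that cells bind through integrins and that fills the early wound bed as a provisional matrix. Matricellular proteins are secreted into the matrix but do little to hold it up, and act on cells and on the assembly of collagen instead; most are scarce in resting adult tissue and return on injury. Tenascin-C loosens adhesion to fibronectin, periostin and SPARC take part in collagen fibrillogenesis, the thrombospondins restrain vessel growth and bind matrix and growth factors, osteopontin (SPP1) is a product of macrophages and other cells, and CCN1 and CCN2 are targets of TGF-β and YAP signalling.

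The animals were 6 female pigs of a Yorkshire-mix breed with circular full-thickness excisional wounds on the back, dressed with Telfa Clear under Tegaderm with no other treatment than a topical antibiotic where biopsies were taken. Poly-A RNA was sequenced from 150 samples, 6 of skin excised at wounding (day 0) and 144 from wounds sampled on 14 days, each wound giving 1 sample from its edge and 1 from its center. Each day used 3 of the 6 animals, animals 1 to 3 on days 1, 3, 5, 7, 11, 15 and 21 and animals 4 to 6 on days 2, 4, 6, 9, 13, 16 and 19, with 2 wounds per animal through day 13 and 1 wound per animal later. The states were therefore day 0, 14 edge states and 14 center states, 21 of them with 6 samples and 8 with 3. Neighbouring days mostly came from different animals, so that day and animal set cannot be told apart between them, and only days of the same animals were tested against each other. The 2 wounds of an animal share that animal and were counted as replicates, so that p-values partly measure the spread between wounds within an animal. Day 0 was not a sample of the later wound but the skin removed to make it, and no unwounded skin from a later day was analysed here.

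Total counts per sample ranged from 13133379 to 24895572, and the member counts from 95 for CCN1 to 378550 for SPARC, so that no member fell near the 3 counts that set the detection floor. Levels are given as log2(1 + CPM), with CPM the count scaled to the total of its library, and values between genes as FPKM, which also divides by gene length. In bulk tissue, fewer cells of a type and less RNA per cell cannot be told apart. The labelled locations differed in their keratinocyte markers, of which 8 of 10 were found in the table. Their summed level on day 7 ran from 39.8 to 331 CPM in the center and from 21162 to 46533 CPM at the edge, against 31151 to 77972 CPM on day 0, and by day 21 the center held 40865 to 47101 CPM. In 7 samples earlier results of these data had found profiles apart from their replicates. Among them, sample 4 of day 3 center carried keratinocyte markers at 29863 CPM and sample 6 of day 3 edge at 59.0 CPM, against their labels. Without the 7 samples apart, the calls of 5 member comparisons changed, and each is given with its member.

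Wounding changed the members in different directions and at different times. Against day 0, TNC, SPP1 and THBS1 rose from day 1 in both locations and CCN1 in the center, FN1 and THBS2 rose from day 4 to day 6 on, SPARC and CCN2 first fell and later rose, and POSTN fell and came back. Contrasts of each of the 28 wound states with day 0 came from edgeR's quasi-likelihood test over all 150 samples, with Benjamini-Hochberg adjustment over 17916 genes and a call at an adjusted p below 0.05. In day 1 center 4 members were called higher and 2 lower, where 60.7% of all genes were called (29.7% higher and 31.0% lower). In day 7 center 7 were higher and 1 lower (63.6% of all genes called, 31.0% higher and 32.6% lower), and in day 21 edge 6 were higher and 0 lower (19.6% called, 13.0% and 6.63%). In the order of the 14 days, the members called in the center numbered 6, 8, 7, 7, 7, 8, 8, 8, 8, 9, 6, 8, 7 and 7 of 9, where 60.7%, 62.1%, 59.7%, 63.0%, 65.3%, 63.9%, 63.6%, 61.2%, 58.5%, 57.8%, 44.6%, 48.6%, 37.1% and 35.1% of all genes were called. At the edge they numbered 8, 6, 7, 8, 7, 8, 7, 5, 4, 5, 2, 3, 5 and 6, where 40.8%, 31.1%, 46.5%, 38.9%, 43.5%, 51.2%, 43.5%, 37.3%, 32.0%, 40.4%, 9.59%, 19.7%, 28.8% and 19.6% of all genes were called. Over the states, 35.1% to 65.3% of all genes were called in the center and 9.59% to 51.2% at the edge, so a single call says little on its own. All 28 contrasts share the same 6 day 0 samples. The 9 members together took 1.56% ± 0.497 (SD, n = 6) of the counts on day 0, 0.636% ± 0.183 in day 1 edge and 3.53% ± 0.435 (SD, n = 3) in day 21 edge.

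**Figure D1:**
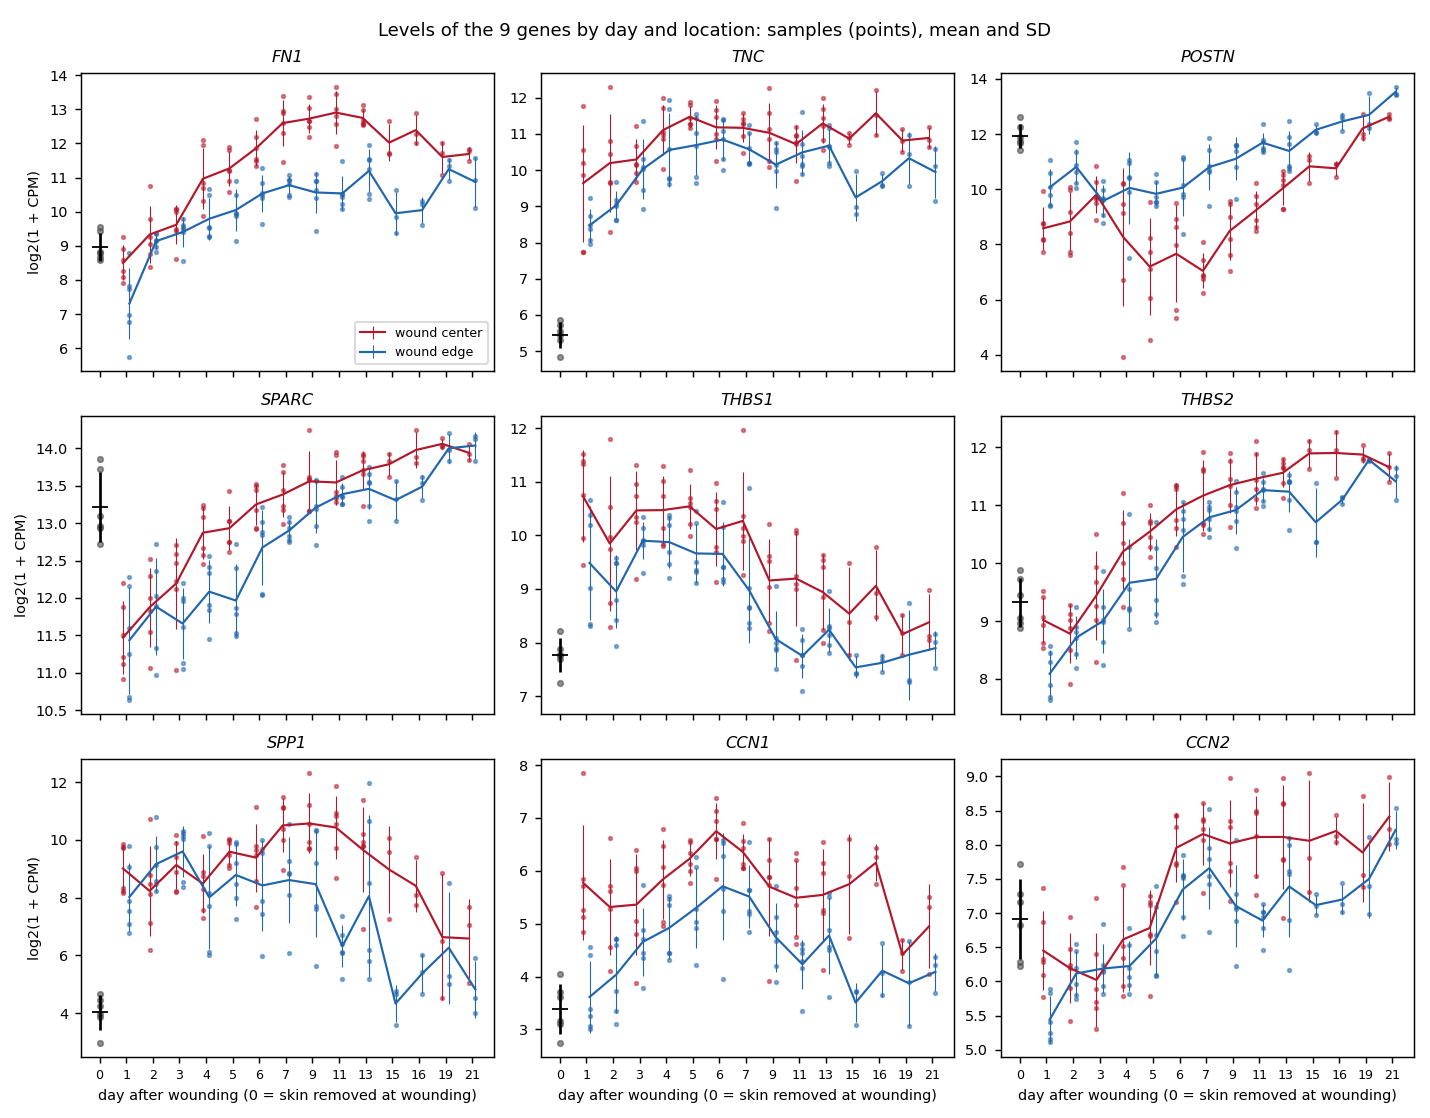
Levels of the 9 genes as log2(1 + CPM) against the day after wounding, with center samples in red, edge samples in blue and day 0 skin in black; points are samples, lines join the means and bars are SDs. TNC and SPP1 start lowest relative to their wound levels, with day 0 means of 5.45 and 4.03, and POSTN runs higher at the edge than in the center through most of the series.

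**Figure D2:**
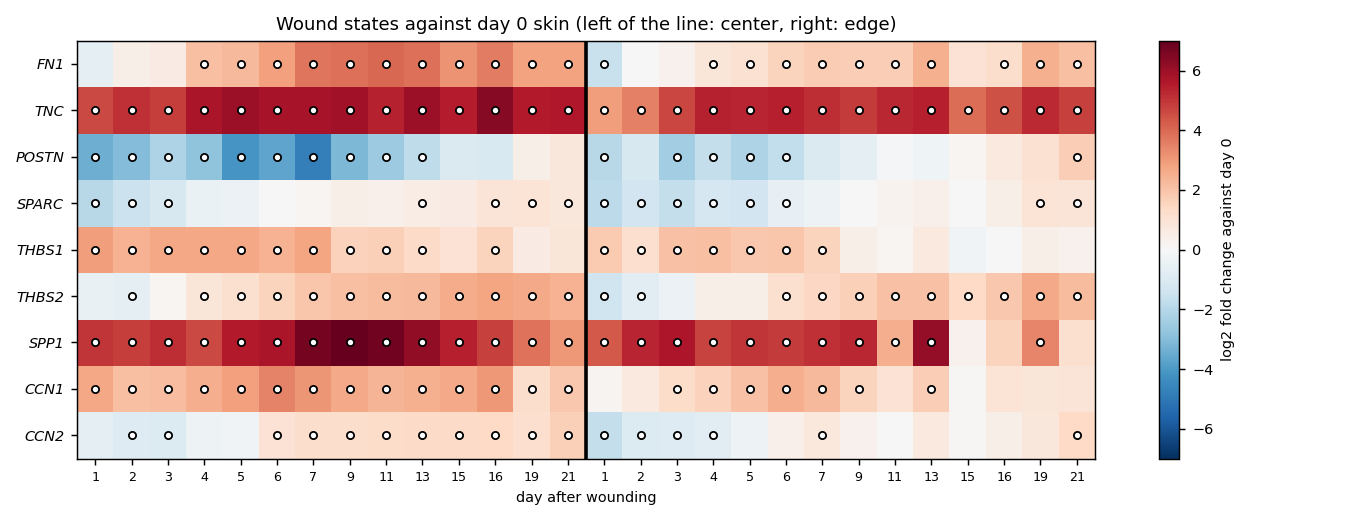
Log2 fold changes of 14 center states (left of the line) and 14 edge states (right) against day 0 skin, from edgeR; a circle marks an adjusted p below 0.05. The row of TNC carries a circle in all 28 states, and the row of POSTN is blue in all center states up to day 16.

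Fibronectin, FN1 (ENSSSCG00025023944, contig LUXX01052760.1 from 1600115 to 1672818), rose 16.5-fold in the wound center by day 11 and less at the edge. On day 0 the lowest, median and highest of the 6 samples were 8.57, 8.80 and 9.54 on the log2(1 + CPM) scale. In day 1 edge they were 5.74, 7.36 and 8.79, and in day 11 center, the state with the highest mean, 11.92, 12.91 and 13.66. Each of the 6 samples of day 11 center was above each of day 0, while those of day 1 edge reached into the day 0 range. FN1 fell in day 1 edge, with a log2 fold change of -1.56 ± 0.34 (SE, edgeR, adjusted p = 1.03e-04), and was not called in day 1, 2 or 3 center. It was called higher in all 11 center states from day 4 on, from 2.08 on day 4 to 4.04 ± 0.38 on day 11, with an adjusted p of 2.44e-17 in edgeR. At the edge it was called in 10 of the 11 states from day 4 on, at most at 2.51 ± 0.40 on day 19. In all it was called higher in 21 of 28 states, which 14.2% of all genes matched or passed, and lower in 1 (55.5%). The edge calls of day 4 (0.85) and day 16 (1.26) were lost with the animal as block, at 0.58 and 0.97, and that of day 15 was gained, at 1.45. The day 4 call was also lost without replicate 1, 2, 3 or 5 (0.65 to 0.87), the day 16 call without replicate 1 or 3 (0.98 and 1.19), and the day 5 call without replicate 6 (0.75).

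Center means of FN1 were 12.75 ± 0.25 (SD, n = 6) on day 13 and 11.69 ± 0.19 (SD, n = 3) on day 21, in different animals. In the same animals, no center change of FN1 was called from day 7 to day 21 or from day 9 to day 19. In FPKM the day 0 mean of 63.5 ± 21.6 (SD, n = 6) became 1019 ± 421 in day 11 center and 203 ± 67.3 in day 11 edge. Among the 9 members FN1 stood between the second and the seventh place by FPKM, and it was in the second in day 13 center. The genes whose state means followed FN1 most closely were REM1 (0.969), TSPAN18 (0.969) and FARP1 (0.965), by Pearson's r over the 29 states.

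Tenascin-C, TNC (ENSSSCG00025029386, contig LUXX01038043.1 from 1874498 to 1972303), had the lowest day 0 level by gene length and was higher in every wound state. Its 6 day 0 samples lay at 27.6 to 56.8 CPM, and on the log2(1 + CPM) scale their lowest, median and highest values were 4.84, 5.50 and 5.85. Those of day 1 center were 7.73, 10.03 and 11.76, those of day 5 center 11.16, 11.36 and 11.88, and the 3 samples of day 16 center, the state with the highest mean, were 10.96, 12.22 and 11.54. The day 0 samples lay below every wound sample of these states. The lowest log2 fold change was 2.95 ± 0.44 (SE) in day 1 edge and the highest 6.40 ± 0.53 in day 16 center, an 84.3-fold rise (edgeR, adjusted p = 6.12e-20). Being called higher in 28 of 28 states set it among 2.55% of all genes. No alternative setting and no replicate left out changed any of these 28 calls. By FPKM it moved from the ninth place among the members on day 0, at 5.10 ± 1.35 (SD, n = 6), to places between the third and the seventh in the wounds, at 303 ± 62.7 in day 5 center. In days 1 and 2 the center samples spread widely, with SDs of 1.61 and 1.35. State means of PDE1C (0.949), GALNT10 (0.940) and PLAUR (0.938) were most like those of TNC over the 29 states. PLAUR encodes the urokinase receptor.

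Thrombospondin 1, THBS1 (ENSSSCG00025016376, contig LUXX01024000.1 from 1764909 to 1800053), was highest in the first week and its near relative THBS2 (ENSSSCG00025030492, contig LUXX01035852.1 from 423898 to 451361) in the third. On day 0 the lowest, median and highest THBS1 samples were 7.25, 7.77 and 8.22 in log2(1 + CPM), in day 1 center 9.44, 11.04 and 11.52 and in day 1 edge 8.31, 9.61 and 10.66. Every sample of both day 1 states was above every day 0 sample. The log2 fold change was 2.94 ± 0.43 (SE) in day 1 center, or 7.66-fold (edgeR, adjusted p = 2.91e-09), and between 2.41 and 2.77 in the center of days 2 to 7. THBS1 was called higher in 18 of 28 states (18.3% of all genes had at least as many) and lower in 0. Past day 7 no edge state was called, and the day 7 edge call of 1.54 rested on replicate 2, without which it was 0.73. The day 2 edge call of 1.19 was lost with the animal as block (1.05) and without replicate 2, 4 or 6 (0.93 to 1.04). In the center the day 16 call of 1.57 was lost without replicate 2, at 0.98. The 3 samples of day 21 center, at 8.98, 8.05 and 8.12, reached into the day 0 range, with a log2 fold change of 0.83 ± 0.48 that did not pass the test (edgeR, adjusted p = 0.174).

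THBS2 was at first below day 0 and then rose. Its day 0 samples had a lowest, median and highest value of 8.88, 9.26 and 9.88 in log2(1 + CPM). Those of day 1 edge were 7.63, 8.09 and 8.57, and those of day 13 center 11.13, 11.66 and 11.80. Neither of these states overlapped with day 0, the edge of day 1 lying below it and the center of day 13 above it. THBS2 fell in day 1 edge by 1.38 on the log2 scale (SE 0.29, edgeR, adjusted p = 5.14e-05). The smaller falls of -0.69 in day 2 center and -0.72 in day 2 edge lost their calls under library sizes without TMM, at -0.53 and -0.63, and without any of replicates 2, 4 and 5 for the center (-0.67 to -0.58) and of 3 to 6 for the edge (-0.83 to -0.59). Without the 7 samples apart the day 2 center value was -0.60 and not called. From day 4 in the center and day 6 at the edge every state was called higher, up to 2.74 ± 0.34 in day 16 center (6.66-fold, edgeR, adjusted p = 1.77e-11), whose 3 samples were 11.48, 12.27 and 11.96. The day 4 center call of 0.87 was lost with the animal as block (0.63) and without replicate 1 (0.61), and the day 15 edge call of 1.42 without replicate 1 (0.94). It was called higher in 20 states (15.6% of all genes had at least as many) and lower in 3 (42.9%).

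The balance of the pair turned over within the first week. The log2 ratio of THBS1 to THBS2 in FPKM was -1.64 ± 0.32 (SD, n = 6) on day 0, with THBS2 higher in all 6 samples. In day 1 center it was 1.64 ± 1.23 with THBS1 higher in 5 of 6 samples, and in day 3 center 0.95 ± 0.57 with THBS1 higher in 6 of 6. It stood at -0.08 ± 0.64 in day 5 center and -0.14 ± 0.91 in day 5 edge, where neither gene was ahead beyond the spread. From day 9 on THBS2 was higher in every sample of both locations, with ratios of -2.27 ± 0.39 in day 9 center and -3.60 ± 0.53 (SD, n = 3) in day 21 edge. Over the 29 states the Pearson's r of the pair's means was -0.468. THBS1 was most like MAPK1IP1L (0.966), RHOA (0.965) and CHD1 (0.960), and THBS2 most like ITGA11 (0.992), ASPN (0.980) and OLFML2B (0.979). RHOA is a small GTPase of the cytoskeleton, ITGA11 a collagen-binding integrin chain and ASPN a small proteoglycan that binds collagen.

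**Figure D3:**
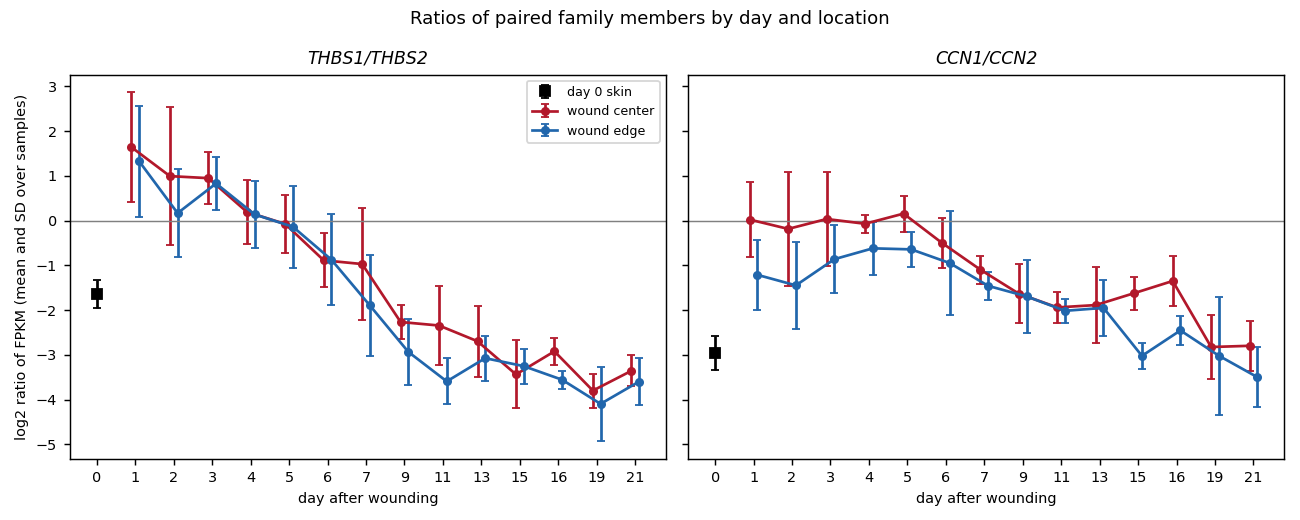
Log2 ratios of FPKM for THBS1 over THBS2 (left) and CCN1 over CCN2 (right) against the day after wounding, as means with SDs over 3 or 6 samples; the line at 0 marks equal FPKM. The THBS1/THBS2 ratio of the center goes from 1.64 on day 1 to -3.36 on day 21, and the CCN1/CCN2 ratio of the center stays near 0 on days 1 to 5.

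Osteopontin, SPP1 (ENSSSCG00025039675, contig LUXX01044184.1 from 2914942 to 2922480), made the largest rise of the members, with wide differences between samples. On day 0 its lowest, median and highest samples were 2.96, 4.11 and 4.66 in log2(1 + CPM), or 6.79 to 24.3 CPM. In day 1 center they were 8.17, 9.03 and 9.85 and in day 9 center, the highest state, 9.69, 10.24 and 12.33. All of these wound samples were above all day 0 samples. The log2 fold change was 4.99 ± 0.85 (SE) in day 1 center and 6.98 ± 0.93 in day 9 center, or 126-fold (edgeR, adjusted p = 1.24e-10). SPP1 was called higher in 25 of 28 states, a number that 8.57% of all genes reached, and lower in 0. The 3 states without a call were the edge of days 15, 16 and 21, whose samples were 4.66, 4.76 and 3.58, then 4.67, 6.00 and 5.44, and 5.90, 4.02 and 4.53. Day 15 edge and day 21 edge overlapped with day 0, and the 3 samples of day 16 edge lay just above it.

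In the center SPP1 came down after day 11. Its 3 samples of day 19 center were 8.87, 6.49 and 4.53, the lowest inside the day 0 range, and those of day 21 center were 7.06, 7.66 and 5.03. The day 19 calls of 3.78 in the center and 3.41 at the edge were lost without replicate 1, at 1.89 and 1.31, and the day 21 center call of 3.06 without replicate 2, at 2.38. The edge call of day 19 was also lost with the animal as block (2.41). Its widest state was day 13 edge, whose samples ran from 5.18 to 11.98. By FPKM it came after SPARC only in every center state up to day 11, with 1373 ± 1200 (SD, n = 6) in day 9 center. A list of 10 macrophage markers was followed beside it. All 10 genes of that list were called higher than day 0 in the center of days 7 to 15, with summed levels of 873 to 6039 CPM in day 9 center against 749 to 870 CPM on day 0. In day 15 edge, where SPP1 was not called, 5 of 10 were (1076 to 1322 CPM). Of all genes, 19.2% to 33.3% were called higher over the center states and 7.61% to 26.8% over the edge states. No marker of the list was at 0 in any state, and its part in the SPP1 levels was not tested. State means of TREH (0.949), MFSD12 (0.941) and RGS1 (0.938) were most like those of SPP1.

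CCN1 (ENSSSCG00025004147, contig LUXX01008172.1 from 494896 to 497652), an integrin ligand of the CCN family, was the member with the fewest counts. Its day 0 samples lay at 5.69 to 15.5 CPM, with a lowest, median and highest value of 2.74, 3.38 and 4.04 in log2(1 + CPM). In day 6 center, the highest state, they were 5.84, 6.78 and 7.37, and every sample was above every day 0 sample. The log2 fold change there was 3.45 ± 0.46 (SE), or 10.9-fold (edgeR, adjusted p = 9.32e-11). All 14 center states were called higher, as were 7 edge states between day 3 and day 13, a total of 21 that 14.2% of all genes reached. The day 19 center call of 1.21 was lost under 4 of the other settings (1.05 to 1.23) and without 5 of the 6 replicates (0.99 to 1.38), and the day 3 edge call of 1.30 with the animal as block (1.26) and without replicate 3 (1.11). The day 11 edge value of 1.03 was not called but became so without the 7 samples apart (1.03) and without replicate 5 (1.25). CCN1 lies inside the span of ZNHIT6 (ENSSSCG00025003987, the same contig from 483165 to 592521) on the other strand. ZNHIT6 ran at 13.4 to 43.1 CPM over all samples, and whether counting used strand is not stated in the sources used here, so reads of the pair cannot be told apart and low CCN1 values are uncertain. Its median was lowest on day 0 (17.3 CPM) and higher in the center than at the edge on each day, with 39.0 and 29.6 CPM on day 6. Its part in the CCN1 fold changes, location differences and ratios to CCN2 was not tested.

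CCN2 (ENSSSCG00025001679, contig LUXX01009893.1 from 704820 to 708721), a connective tissue growth factor gene and long-known target of TGF-β, fell before it rose. The lowest, median and highest day 0 samples were 6.23, 6.99 and 7.71 in log2(1 + CPM), those of day 1 edge 5.12, 5.32 and 5.89 and those of day 7 center 7.29, 8.29 and 8.61. Day 1 edge lay below every day 0 sample, and in day 7 center 1 of the 6 samples (7.29) lay within the day 0 range and the others above it. CCN2 fell by 1.69 on the log2 scale in day 1 edge (SE 0.32, edgeR, adjusted p = 8.43e-06), and rose by up to 1.64 ± 0.37 (SE) in day 21 center (3.12-fold, adjusted p = 1.94e-04). The 3 samples of day 21 center were 8.99, 8.02 and 8.23, above all day 0 samples. It was called lower in 6 states, all of days 1 to 4 (35.4% of all genes had at least as many), and higher in 11, of which 9 were the center states from day 6 on (28.1%). Several of the smaller calls were lost without a single replicate. Among the falls these were day 2 edge without replicate 3 (-0.73), day 3 edge without replicate 3 or 4 (-0.75 and -0.81) and day 4 edge without replicate 3, 4 or 5 (-0.74 to -0.66). Among the rises they were days 15 and 19 center without replicate 3 (0.84 and 0.84), day 7 edge without replicate 1, 2, 4 or 6 (0.42 to 0.77) and day 21 edge without replicate 1 (1.15). With the animal as block, the calls of days 6 and 19 center (0.84 and 0.96) and of days 3 and 7 edge (-0.82 and 0.86) were lost.

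Like the thrombospondins, the CCN pair changed its balance. The log2 ratio of CCN1 to CCN2 in FPKM was -2.95 ± 0.38 (SD, n = 6) on day 0, with CCN2 higher in 6 of 6 samples. In the center it was 0.02 ± 0.83 on day 1 and 0.16 ± 0.40 on day 5, so that neither gene was ahead beyond the spread. It went back to -1.94 ± 0.35 in day 11 center and to -2.80 ± 0.55 (SD, n = 3) in day 21 center. At the edge CCN2 was higher in all or all but 1 of the samples of every state, with ratios from -0.62 ± 0.60 on day 4 to -3.50 ± 0.67 on day 21. State means most like those of CCN1 were COLGALT1 (0.941), SDF2 (0.932) and FSTL3 (0.928), and most like those of CCN2 ITGAV (0.920), ST6GAL2 (0.919) and DAAM2 (0.913). ITGAV encodes the αv integrin chain, a receptor chain for fibronectin, osteopontin, periostin and the CCN proteins.

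Periostin, POSTN (ENSSSCG00025049827, contig LUXX01036174.1 from 1229537 to 1310612), was abundant in day 0 skin and fell in the wounds before it came back. On day 0 its lowest, median and highest samples were 11.42, 11.83 and 12.61 in log2(1 + CPM). In day 7 center, the lowest state, they were 6.23, 6.87 and 8.07, while day 7 edge had 9.40, 10.76 and 11.85. The center samples lay far below both the edge and day 0, which overlapped with each other. POSTN fell by 4.80 on the log2 scale in day 7 center (SE 0.59, edgeR, adjusted p = 5.12e-12), 27.8-fold. It was called lower in the 10 center states up to day 13 and in 5 edge states, those of days 1, 3, 4, 5 and 6, a total of 15 that 17.5% of all genes reached. The center of days 4 to 6 was uneven, with samples from 3.92 to 10.24 on day 4. In day 21 edge the 3 samples were 13.44, 13.45 and 13.72, above every day 0 sample, with a log2 fold change of 1.71 ± 0.59 (SE, edgeR, adjusted p = 0.0298). This was its only call above day 0, a number that 53.0% of all genes reached, and it was lost without replicate 1, 2, 3 or 6 (1.71, 1.73, 1.55 and 1.67). Its other late states, day 19 and day 21 center among them, were not called. POSTN shares its span with an unnamed gene and with POL, which hold 2144 and 39 counts in all, against 5331437 for POSTN.

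SPARC (ENSSSCG00025037875, contig LUXX01062592.1 from 1669847 to 1693433), a collagen-binding protein also called osteonectin, had the highest FPKM of the members in all 29 states. Its lowest, median and highest day 0 samples were 12.72, 13.03 and 13.86 in log2(1 + CPM), those of day 1 center 10.91, 11.36 and 12.20 and those of day 1 edge 10.64, 11.43 and 12.29. Both day 1 states lay below day 0 without overlap. SPARC fell by 1.93 on the log2 scale in day 1 center (SE 0.25, edgeR, adjusted p = 6.66e-11) and by 1.84 in day 1 edge. It was called lower in 9 states (29.7% of all genes had at least as many), the center up to day 3 and the edge up to day 6, and higher in 6 late states (36.0%). The 3 samples of day 19 edge were 13.97, 13.83 and 14.20, with the log2 fold change of 0.97 ± 0.29 (edgeR, adjusted p = 0.00645) that was its highest. The late rises did not all hold. Those of days 16 and 19 center and of day 19 edge were not called with the animal as block (0.56, 0.60 and 0.63), that of day 13 center (0.54) under 6 other settings (0.19 to 0.57), and each of the 6 was lost without replicate 2, replicate 3 or both in turn (0.45 to 0.87). The day 6 edge call of -0.58 was lost without replicate 2, 3, 4 or 5 (-0.56 to -0.45).

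In FPKM, SPARC went from 4174 ± 1579 (SD, n = 6) on day 0 to 1061 ± 410 in day 1 center and 8071 ± 1075 (SD, n = 3) in day 19 edge. The genes most like SPARC over the 29 states were COL1A2 (0.986), COL3A1 (0.985) and C1QTNF6 (0.984), 2 of them chains of fibrillar collagens, and COL3A1 is also on the list of fibroblast markers. Those most like POSTN were WNT9A (0.958), UBE2QL1 (0.949) and CRABP1 (0.939). The summed level of 8 fibroblast markers was 17389 to 42533 CPM on day 0, 2913 to 13174 CPM in day 1 edge with 5 of 8 called lower and 0 higher, and 59468 to 73529 CPM in day 21 edge with 7 of 8 called higher. Of all genes, 19.1% were called lower and 21.7% higher in day 1 edge, and 13.0% higher in day 21 edge. In day 7 center, where POSTN was lowest, the summed level of these markers was 30368 to 64834 CPM. None was at 0, and the part of fibroblast content in the SPARC, THBS2 and POSTN levels was not tested.

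Between members, state means over the 29 states were most alike for SPARC and THBS2 (r = 0.940), THBS2 and CCN2 (0.898), SPARC and CCN2 (0.875), FN1 and CCN2 (0.871) and FN1 and THBS2 (0.867). SPP1, CCN1, THBS1 and TNC were also positive with each other, from 0.333 for TNC and THBS1 to 0.752 for SPP1 and CCN1. They were not a separate set, since TNC had 0.677 with FN1 and 0.535 with THBS2, and CCN1 0.538 with FN1. THBS1 was negative with SPARC (-0.608) and THBS2 (-0.468). POSTN ran opposite to THBS1 (-0.878), SPP1 (-0.800) and CCN1 (-0.755). These are Pearson coefficients between means of states that share animals and libraries, and are given as a description. Ordered by mean level, most neighbouring states of a member differed by less than the larger of their SDs. This held for all 28 neighbouring pairs of SPARC, THBS1, SPP1, CCN1 and CCN2, for 27 of FN1 and THBS2, and for 26 of TNC and POSTN.

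The comparison of edge with center asked where in the wound the members were expressed. POSTN was higher at the edge, and the other 8 members were higher in the center. Over the mean of the 14 days, edge minus center in edgeR was -1.33 ± 0.10 (SE) for FN1 (adjusted p = 5.89e-23), -1.37 ± 0.22 for SPP1 (adjusted p = 3.45e-08) and -1.24 ± 0.13 for CCN1 (adjusted p = 7.58e-16). It was 1.64 ± 0.16 for POSTN (adjusted p = 1.85e-17), or 3.11-fold toward the edge. THBS1 had -0.93 ± 0.12, TNC -0.83 ± 0.12, CCN2 -0.60 ± 0.10, THBS2 -0.47 ± 0.09 and SPARC, with the smallest difference, -0.33 ± 0.07 (adjusted p = 4.84e-05). All 9 were called, in a comparison that called 66.3% of all genes (32.5% higher at the edge and 33.8% lower). The direction of each member was the same in 6 of 6 animals. By wound, POSTN was higher at the edge of 70 of 72 wounds, and the others higher in the center of 68 (CCN1), 67 (FN1), 67 (THBS1), 60 (TNC), 58 (CCN2), 57 (SPARC), 55 (THBS2) and 55 (SPP1). The share of all genes that agree as widely over animals and wounds is not given here.

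**Figure D4:**
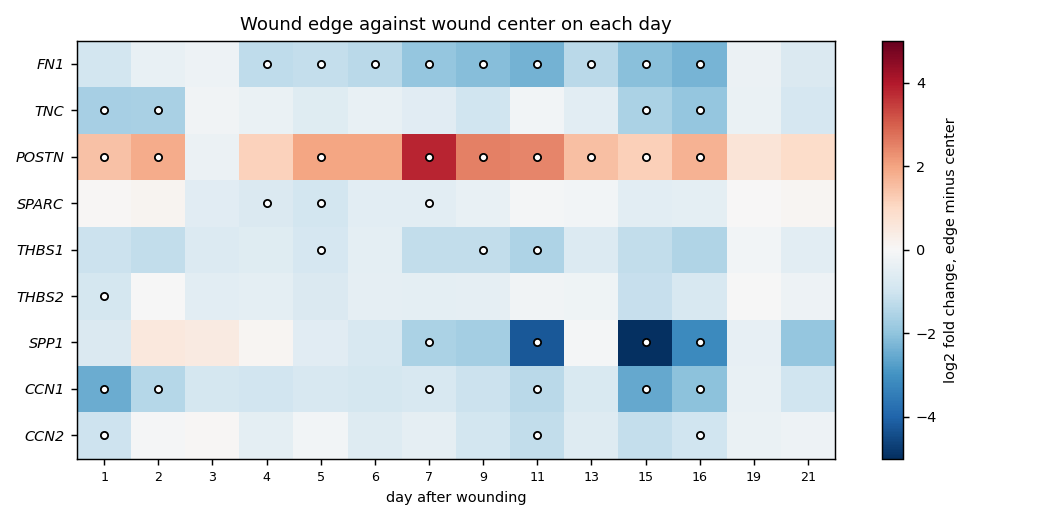
Log2 fold changes of edge against center for each of the 14 days, fitted on the samples of the day alone with edgeR; red is higher at the edge, blue higher in the center, and a circle marks an adjusted p below 0.05. POSTN is red on every day but day 3, with its largest value on day 7 (3.82), and days 3, 19 and 21 carry no circle.

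Day by day, FN1 was called higher in the center on 9 of 14 days, from day 4 to day 16, and 2.93% of the 13310 genes tested on every day were called so on at least as many days. On day 11 its lowest, median and highest samples were 11.92, 12.91 and 13.66 in the center and 10.06, 10.46 and 11.48 at the edge, in log2(1 + CPM). The highest edge sample stayed below the lowest center sample. Edge minus center was -2.35 ± 0.30 (SE, edgeR, adjusted p = 1.35e-04), the largest of its days, and center was higher in 6 of 6 wounds. On day 4 the value was -1.26 and its call was lost without any 1 of the 6 replicates (-1.36 to -1.09). The calls of days 15 and 16 were lost without replicate 2 (-2.11 and -1.79) or replicate 3 (-1.48 and -2.44), where 2 samples remained in each location.

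POSTN was called higher at the edge on 9 days (7.32% of genes had at least as many), and on 10 with the wound as replicate block. Over the 14 days the block called 52926 of 202179 tests of a gene on a day, against 47540 without it. No share of genes by number of days is given for the block. On day 7, edge minus center was 3.82 ± 0.44 (SE, edgeR, adjusted p = 2.59e-05), with no overlap between the locations. No overlap was seen on days 9, 11, 13, 15, 16 and 21 either, although the day 21 value of 0.91 ± 0.17 was not called (adjusted p = 0.179), on a day that called 0.0684% of genes. The call of day 1 (1.47) was lost without replicate 2 (1.10). The calls of days 5, 15 and 16 were also lost without replicate 2 (1.87, 1.39 and 1.58) or 3 (1.92, 1.02 and 1.69), and those of days 5 and 15 without replicate 1 (1.84 and 1.21). On day 3 POSTN had -0.29 ± 0.35, with the edge higher in 4 of 6 wounds.

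CCN1 was called higher in the center on 6 days (10.3% of genes), and on 10 with the wound as block. On day 1 its lowest, median and highest samples were 4.84, 5.48 and 7.86 in the center and 3.00, 3.32 and 4.56 at the edge, with no overlap and edge minus center at -2.50 ± 0.56 (SE, edgeR, adjusted p = 0.00344). Of the 6 days, day 7 (-0.79) was lost without any replicate but 2 (-0.86 to -0.69), day 2 without replicate 3 or 4 (-1.37 and -1.21), and days 15 and 16 without replicate 2 (-2.64 and -1.74) or 3 (-1.89 and -2.18). THBS1 was called on 3 days (23.1% of genes), days 5, 9 and 11, and on 7 with the wound as block. CCN2 was called on 3 days (23.1%) and on 5 with the block, and THBS2 on 1 day (43.3%) and on 3 with the block. The single THBS2 day was day 1, at -0.89 ± 0.23 (edgeR, adjusted p = 0.00785). Without the 7 samples apart, day 5 was called for THBS2 (-0.96) and CCN1 (-1.04), and day 9 for TNC (-1.14).

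SPP1 was called on 4 days (17.8% of genes), with its largest differences late. On day 11 its lowest, median and highest samples were 8.68, 10.69 and 11.88 in the center and 5.19, 6.26 and 7.36 at the edge, without overlap, and edge minus center was -4.24 ± 0.54 (SE, edgeR, adjusted p = 1.29e-04). On day 15 the 3 center samples were 9.58, 7.27 and 10.07, all above the 3 edge samples, and the value was -5.08 ± 0.82 (adjusted p = 0.0196), which was lost without any 1 of the 3 wounds (-5.70 to -4.27). On day 3 SPP1 had 0.45 ± 0.44 with the edge higher in 5 of 6 wounds, and did not pass the test (edgeR, adjusted p = 0.661). On day 4 it had 0.10 ± 0.70 although the center was higher in 5 of 6 wounds. TNC was called on 4 days (17.8% of genes) and SPARC on 3 (23.1%), and on 3 and 2 with the wound as block. The 4 TNC calls, of days 1, 2, 15 and 16, were each lost without replicate 2 (-1.53, -1.69, -1.30 and -1.42) or 3 (-1.65, -1.67, -1.36 and -2.09), and those of days 1 and 2 also without replicate 6 (-1.71 and -1.59), the first also without replicate 4 (-1.30).

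No member was called on days 3, 19 and 21, which called 0.0%, 0.0% and 0.0684% of all genes. Without the 2 day 3 samples whose keratinocyte markers went against their labels, 18.1% of genes were called on day 3 and still none of the members. The markers of the locations differed beyond the members. Over all days 8 of 8 tested keratinocyte genes were higher at the edge, and 10 of 10 macrophage, 6 of 6 endothelial and 7 of 8 fibroblast genes were higher in the center. Of 7 neutrophil genes 3 were higher at the edge and 4 in the center, and of 6 pericyte and smooth muscle genes 1 and 4. Of the other lists, 3 of 4 platelet, 2 of 2 osteoclast-like, 3 of 8 skeletal muscle, 1 of 5 adipocyte and 0 of 3 erythrocyte genes were higher in the center, and 0 at the edge. Of all genes 32.5% were higher at the edge and 33.8% in the center. On day 7, summed macrophage markers were 1829 to 2834 CPM in the center and 1137 to 2640 CPM at the edge, and fibroblast markers 30368 to 64834 and 22468 to 32880 CPM. No gene of the macrophage and fibroblast lists was at 0 in any state. The part of the markers in the differences of the members was not tested, and tissue makeup and location cannot be told apart here.

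Days of the same animals were compared to follow the members in time without a change of animals. The wounds of the compared days carried different letters in each animal. Day and wound letter therefore cannot be told apart in these contrasts. From day 1 to day 7, in animals 1 to 3, FN1, SPARC, THBS2 and CCN2 rose in both locations. In the center 5 members were called higher and 1 lower (35.6% of all genes called, 16.5% higher and 19.0% lower), and at the edge 6 higher and 0 lower (22.4%, 13.5% higher and 8.88% lower). FN1 gained 4.37 ± 0.39 (SE, log2) in the center and 3.34 ± 0.37 at the edge (edgeR, adjusted p = 4.86e-18 and 4.59e-13). THBS2 gained 2.43 ± 0.30 and 2.82 ± 0.31, and SPARC 2.08 ± 0.25 and 1.47 ± 0.25. TNC rose at both locations, and its center call (1.14 ± 0.41) was lost without TMM (0.92) and without replicate 1, 2, 3 or 5 (0.89 to 1.13). POSTN fell in the center by 1.38 on the log2 scale, a call lost without replicate 1, 3 or 6 (-1.38 to -1.21). CCN1 rose at the edge by 2.09 ± 0.44, and in the center had 0.39 ± 0.42, which became 1.24 and a call without replicate 2.

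From day 2 to day 9, in animals 4 to 6, 5 members rose at each location and 0 fell (in the center 30.9% of all genes called, 14.7% higher and 16.3% lower, and at the edge 15.0%, 9.8% higher and 5.17% lower). FN1 gained 3.46 ± 0.37 (SE, log2) in the center and 1.70 ± 0.35 at the edge (edgeR, adjusted p = 1.71e-13 and 1.20e-04). THBS2, SPARC and CCN2 also rose at both, SPP1 only passed the test in the center (2.16 ± 0.75, lost without replicate 5 at 1.90 and with the wounds of an animal summed at 2.19), and TNC only at the edge (1.35 ± 0.41, lost without replicates 2 or 3 at 1.22 and 1.31). Neither difference between locations passed its own test.

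Later the direction was mixed. From day 7 to day 21, POSTN rose by 5.59 ± 0.65 (SE, log2) in the center and 2.70 ± 0.60 at the edge (edgeR, adjusted p = 6.14e-11 and 0.00130). SPP1 fell by 3.64 in the center and fell by 3.94 at the edge on that scale, the latter lost without replicate 2 (-3.01) or 3 (-3.88). THBS1 fell by 1.95 in the center, lost without replicate 2 (-1.22), and SPARC rose by 1.29 ± 0.29 at the edge. In all 3 members were called at each location (32.8% and 12% of all genes called). With the counts of an animal's wounds summed it was 6 at each location, among them THBS1 and CCN1 at the edge. From day 9 to day 19 in the center POSTN rose by 3.58 ± 0.61 and SPP1 fell by 3.19, a call lost without replicate 2 or 3 (-3.03 and -2.80), and CCN1 fell by 1.44, lost under 3 other settings (-1.44 to -1.42) and without any replicate but 5 (-1.60 to -1.17). That contrast called 19.5% of all genes. At the edge 0 members were called by edgeR from day 9 to day 19 (0.742% of all genes), 1 by DESeq2 and 3 with summed wounds. An unadjusted p below 0.05 in edgeR was seen for 3 of 9 members and for 2701 of 17916 genes. The shares of all genes called between days by DESeq2 or with summed wounds are not given here.

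Whether the change in time differed between edge and center was tested as an interaction, edge change minus center change. From day 1 to day 7 it was called for POSTN, at 2.31 ± 0.72 (SE, log2, edgeR, adjusted p = 0.0164), and for CCN1, at 1.71 ± 0.59 (adjusted p = 0.0337), among 16.2% of genes. From day 7 to day 21 it was called for POSTN in the other direction, at -2.89 ± 0.90 (adjusted p = 0.0374, 4.88% of genes). The gap of POSTN between the locations widened to day 7 and was smaller on day 21, when the edge samples still lay above the center samples. FN1 had -1.76 ± 0.48 from day 2 to day 9 (adjusted p = 0.0112, 8.61% of genes) and 1.83 ± 0.59 from day 9 to day 19 (adjusted p = 0.0491, 4.89%). With no filter on low counts the calls of CCN1 to day 7 (1.67), POSTN to day 21 (-2.86) and FN1 to day 19 (1.84) were lost, as was CCN1 with summed wounds (1.63) and FN1 to day 19 without TMM (1.75). Each of the 5 was lost without at least 1 of the replicates. POSTN to day 7 was lost without replicates 1, 3, 4 and 6 (1.96 to 2.19), CCN1 without 1, 2 and 3 (1.83, 0.55 and 1.77), POSTN to day 21 without all but replicate 5 (-3.08 to -2.53), FN1 to day 9 without 2 and 3 (-1.76 and -1.36), and FN1 to day 19 without 1, 2, 3 and 6 (1.50 to 2.05). Signs stayed the same in each of these, and the CCN1 value without replicate 2 was the only one to move by over 1.5 times; that replicate's day 1 center sample lay far above the others (7.86 against 4.84 to 5.85 in log2(1 + CPM)).

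Receptors of these proteins, from a list of 17, rose in part. ITGA5, the α5 chain of the fibronectin receptor, was called higher than day 0 in 28 of 28 states (2.55% of all genes), with log2 fold changes from 0.88 to 3.82. Its partner chain ITGB1 and ITGA4, ITGB3 and the endocytic receptor LRP1 were called higher in 27, which 4.83% of all genes reached. EGFR was called lower in 23 and ITGB5 in 16, which 6.39% and 16.0% of genes reached. ITGB6, a chain of epithelial cells, was called lower in 7 center states and higher in 2 edge states, with edge minus center over all days at 2.36. Of all genes, 33.4% were called lower in at least 7 of the 28 states and 47.3% higher in at least 2. In day 7 center, 9 of the 17 receptors were called higher and 5 lower, where 31.0% of all genes were higher and 32.6% lower, and the median log2 fold change was 0.59 against -0.03 over all genes. In day 1 edge 3 were higher and 5 lower, where 21.7% of all genes were higher and 19.1% lower.

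Of 18 other matricellular family members, TGFBI, which binds collagens and integrins, and FSTL1, a SPARC relative, were called higher in 26 states each (6.74% of all genes reached this). COMP, the thrombospondin of cartilage and tendon, rose most, by up to 7.67 on the log2 scale and in 22 states (12.9%). THBS3 was called higher in 23 (11.4%) and CCN4 in 21 (14.2%). Others fell. CCN6 was called lower in 26 states, SPOCK1 in 20, CCN3 in 18 and SPARCL1, another SPARC relative, in 17, which 2.43%, 10.4%, 13.3% and 14.6% of all genes reached. In day 7 center 8 of the 18 were called higher and 7 lower, with a median of 0.42 against -0.03, where 31.0% of all genes were higher and 32.6% lower. In day 1 edge 0 were higher and 10 lower, with a median of -1.23 against -0.07 over all genes, of which 21.7% were higher and 19.1% lower. Within the CCN family CCN1, CCN4 and CCN5 were higher and CCN3 and CCN6 lower in most states, each on its own fold change against the same day 0 samples. CCN5 was called higher in 20 states (15.6% of all genes reached this) and lower in 0. CCN4 was also called lower in 4 (40%), and CCN2 went both ways.

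Of 9 regulators, TGFB1 was called higher in 28 states, from 1.42 to 3.01 in log2 fold change, and TGFB3 in 25, which 2.55% and 8.57% of all genes reached. The YAP pathway genes YAP1, WWTR1 and AMOTL2 were called lower in 12, 18 and 17 states (23.1%, 13.3% and 14.6% of all genes) and higher in 0, while the YAP target and muscle gene ANKRD1 was higher in 9 (30.8%). In day 7 center 6 of the 9 were higher and 2 lower, with a median of 1.47 against -0.03, where 31.0% of all genes were higher and 32.6% lower. Of the blood-borne provisional matrix genes, FGA did not pass the filter on low counts. FGG was called in 3 states, where 43.5% of all genes were called higher and 42.9% lower in at least 3. FGB was called lower in 1 (55.5%), while VTN (vitronectin) was called higher in 14 (23.9%), of which 13 were in the center. Skeletal muscle markers ran from 6.78 to 86277 CPM in summed level across day 2 center samples, and their part in the ANKRD1 values was not tested.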

How the data were processed

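Per the labels, poly-A RNA of 150 samples was read as paired reads. The authors deposited a table of read counts per gene (the unit of all tests here), with gene length, and FPKM values made from these counts. FPKM was used to compare levels between genes and, for some members, to describe levels by state, with no test. Against count, gene length and library total, the FPKM factor per sample ran from 0.845 to 1.31, so changes in FPKM between states are not on the CPM scale. The aligner, counter, strand setting and annotation version are not given in the sources used here, and a gene without a symbol in the name column was named from the deposited protein match. Tests were made by quasi-likelihood in edgeR (version 4.0.16, R 4.3.3) after TMM scaling. This test gives no SE, so each SE was derived as the size of the log2 fold change over the square root of its F statistic. The function filterByExpr removed low genes (count at least 10, total at least 15), and p-values were adjusted by Benjamini-Hochberg, over 17916 genes in the fit over all samples and 14166 to 14652 in the fits of each day alone. Levels were log2(1 + CPM), with a pseudocount of 1. The scripts were tested on simulated data with known changes. The 9 members, the pathway lists and the marker lists were chosen with earlier results of these data known. Genes named beside the members were the 3 with the highest Pearson's r of state means and the listed pathway genes called in the most states. Samples pair by design, since edge and center came from the same wound and animal. Their deviations from the group means had a mean r of 0.259, positive in 64 of 72 wounds. For samples of different wounds of a day it was -0.0582. Deviations from a group mean cancel within the group, which by itself pulls that value down, so it is no independent reference. Alternatives were DESeq2 1.42.0, other scalings, no filter, the wound or animal as block, summed wounds, other sets of samples and each replicate left out. No sequence is reported here, and some genes of the pathway lists are given only within counts. Total counts were 13133379 to 24895572 per sample.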

Additional observations from a re-analysis of the deposited data

Results flagged for a closer look

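Of 189 groups of 6 samples, 10 held a sample far from the others by Dixon's criterion, and chance gives about 1 in 20, or 9.45. The values are log2(1 + CPM), with the range of the other samples. For FN1 they were replicate 4 of day 3 edge at 8.56 (others 9.41 to 9.80) and replicate 3 of day 11 edge at 11.48 (10.06 to 10.53). For TNC it was replicate 5 of day 11 center at 9.69 (10.73 to 11.19), for POSTN replicate 5 of day 4 edge at 7.53 (9.89 to 11.07) and for SPARC replicate 4 of day 3 center at 11.04 (12.13 to 12.72), one of the 7 samples apart. THBS1 had replicate 2 of day 7 edge at 10.89 (8.27 to 9.03), and SPP1 replicate 3 of day 13 center at 6.91 (9.77 to 11.38). For CCN1 they were replicate 2 of day 1 center at 7.86 (4.84 to 5.85), replicate 1 of day 9 center at 3.92 (5.73 to 6.60) and replicate 5 of day 11 edge at 3.35 (4.17 to 4.61).

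The change in time differed between edge and center in 5 comparisons by edgeR's test of the difference. From day 1 to day 7 it was 2.31 for POSTN and 1.71 for CCN1 in log2 units, edge minus center. From day 7 to day 21 it was -2.89 for POSTN, from day 2 to day 9 -1.76 for FN1, and from day 9 to day 19 1.83 for FN1. The calls of CCN1 to day 7, POSTN to day 21 and FN1 to day 19 were lost with no filter on low counts (1.67, -2.86 and 1.84), that of CCN1 also with summed wounds (1.63) and that of FN1 to day 19 also without TMM (1.75).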

How the results depend on the processing

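A count was taken as kept where it stayed within 1.5 times the main one, and a location value where its call and sign stayed. By this rule 23 of 44 counts and location values were kept under every alternative. Among them were the 28 states of TNC and edge minus center over all days for all 9 members under 13 alternatives. No direction of a called value reversed. With day 0 and the state alone, FN1 had 2 states lower and POSTN 3 higher, and with summed wounds POSTN had 2 higher. Without TMM, THBS2 had 1 state lower. Days called higher in the center were 7 with the wound as replicate block, 9 by DESeq2 and 5 in 1 fit of all samples for THBS1. For THBS2 they were 3 with the block, 4 by DESeq2, and 2 each without the 7 samples apart, with summed wounds and in 1 fit. For CCN1 they were 10 with the block, and for CCN2 5 with the block and 5 by DESeq2. The block moved no other count by over 1.5 times. Over all genes and days it called 52926 of 202179 tests and DESeq2 57259, against 47540 in the main fits. Between days, summed wounds called 6 members from day 7 to day 21 at each location, and from day 9 to day 19 at the edge 3, where DESeq2 called 1. The shares of all genes called between days in these settings are not given here. Whether more members or more genes in general were called therefore cannot be told. Members whose time change differed between locations were 1 from day 1 to day 7 with no filter and with summed wounds, 0 from day 7 to day 21 with no filter, and 0 from day 9 to day 19 without TMM and with no filter; the cause was not tested.

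Leaving out each replicate in turn gave these ranges. States lower than day 0 were 1 to 2 for FN1, 1 to 3 for THBS2 and 3 to 7 for CCN2, and states higher 0 to 1 for POSTN and 1 to 8 for SPARC. Days called higher at the edge were 5 to 9 for POSTN, and days called higher in the center 6 to 9 for FN1, 0 to 4 for TNC, 1 to 2 for SPARC, 1 to 3 for THBS1, 1 to 2 for THBS2, 1 to 3 for SPP1 and 2 to 6 for CCN1. Differences in time change were 0 to 2 members to day 7, 0 to 1 from day 7 to day 21, 0 to 1 from day 2 to day 9 and 0 to 1 from day 9 to day 19, and center members from day 9 to day 19 were 1 to 3. On TMM-scaled CPM the highest means moved to 13.70 for POSTN and 14.22 for SPARC, whose highest state became day 19 edge. The analysis of sequence features was not run.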

Other observations

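The 2 wounds of an animal carry letters whose position on the back is not given in the sources used here. On days 1 and 2 these were A and L, and the comparison was chosen after values were seen. In the center, with the animal as block (edgeR, 12 samples, 6 animals), 20.9% of 14213 genes differed between the wounds. TNC was higher in wound L by 2.00 ± 0.22 (SE, log2, adjusted p = 0.00120), THBS1 by 1.61 ± 0.18 (0.00126) and CCN1 by 1.47 ± 0.25 (0.00595). Lower in wound L were POSTN at -1.40 ± 0.19 (adjusted p = 0.00265), SPARC at -0.71 ± 0.14 (0.00960) and THBS2 at -0.51 ± 0.13 (0.0278). FN1 had 0.73, SPP1 -0.29 and CCN2 -0.08, which did not pass the test. Each of the 6 called members had its direction in 3 of 3 animals on each day. They were called on these same samples with the animal as block, so this agreement is a description and no further evidence. The calls held without animal 4, where 23.5% of 14234 genes were called.

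At the edge no member was called, among 0.0138% of 14545 genes, and CCN1 had the smallest p of the members, with 1.19 ± 0.18 (edgeR, unadjusted p = 1.53e-04, adjusted p = 0.151). Summed skeletal muscle markers in the center were 11.8 to 16.7 CPM in wound A and 6.78 to 86277 CPM in wound L, adipocyte markers 9321 to 16184 and 1835 to 6990 CPM, keratinocyte markers 84.7 to 19818 and 33.8 to 390 CPM, and endothelial markers 1436 to 1993 and 879 to 1321 CPM. Their part in these differences was not tested.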
